A study of Mus musculus with 4 samples.

Results

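The 10 genes described here are Jak1, Jak2, Stat3, Stat5a, Stat5b, Stat6, Socs1, Socs2, Socs3 and Cish, taken by symbol, as kinases, STATs and feedback inhibitors that IL-6 and GM-CSF use, from the 32285 genes of the deposited tables. They were measured by single-cell RNA sequencing (scRNA-seq) in myeloid-derived suppressor cells (MDSCs), cells of the neutrophil and monocyte lines known for restraining T cells, here grown in vitro from mouse bone marrow. All 4 libraries came from cultures given IL-6 and GM-CSF, both at 40 ng/ml, and were made on day 4 from live cells sorted for CD11b. The groups were WT+PBS (wild type, 0 µM ISO), WT+ISO (wild type, 10 µM ISO), β2AR-/-+PBS (mice without the β2-adrenergic receptor, 0 µM ISO) and β2AR-/-+ISO (10 µM ISO), where ISO is isoproterenol, an agonist of all β-adrenergic receptors. Each group had 1 library, so no test of any difference was possible, no p-value is given, and every interval printed covers counting error only. The number of mice or cultures behind a library, their age and their sex are not given in the labels, and how the receptor allele was made is not given in the sources used here. The wild type and β2AR-/- libraries shared the cytokines, the culture time and the sort, and the mice were on a C57BL/6 background. The paper states that cells were labelled with feature barcodes and that suspensions were pooled before capture. It does not say which suspensions were pooled, so the groups may not be separate captures. Whether the receptor shapes the response of these genes to ISO is the question that the 4 groups address.

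Cytokine receptors of this family carry no kinase of their own and depend on Janus kinases (JAKs) bound to their tails. Once a cytokine binds, the JAKs phosphorylate the receptor and the STAT proteins that dock there, and STAT dimers then move to the nucleus and drive transcription, often through the palindrome TTCNNNGAA. IL-6 acts mainly through JAK1 and STAT3, and GM-CSF through JAK2 and STAT5, while IL-4 and IL-13 use STAT6. The SOCS genes and Cish are themselves transcribed in answer to STATs, and their proteins bind receptors or JAKs and dampen the signal, which closes a feedback loop. In myeloid cells STAT3 is known for its part in the expansion of MDSCs and in granulopoiesis, and STAT5 for growth and survival under GM-CSF. The counts describe transcripts and hold no information on the phosphorylation through which these proteins act.

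Of the 10 genes, 9 had a promoter entry in RefSeq (GRCm38.p6, the same build as the mm10 of the submitters' processing notes), and Socs2 had none. These 9 genes had 11 entries, each with 250 bases before and 50 bases after a transcript start. TTCNNNGAA, which reads the same on both strands, was present in the entries of 2 of the genes, Cish and Socs3, against 2726 of all 32851 entries (8.30%). The variant with a 4-base gap, TTCNNNNGAA, was in none of the 9 genes and in 6.95% of all entries. The cAMP response element TGACGTCA was searched because β2-adrenergic receptors raise cAMP. It was in the entry of Jak1 and in 1.79% of all entries, and it overlapped no match of the other motifs. The stretches that hold the matches are given 5′ to 3′ with the matched letters in capitals, because these are the matches among the members. A match is a description of letters and not a site of binding.
Cish, chr9:107296654-107296683, plus strand: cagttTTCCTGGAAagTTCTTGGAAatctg
Socs3, chr11:117969502-117969531, minus strand: agaaaccagccTTCTTAGAAgggagggggg
Jak1, chr4:101265283-101265473, minus strand: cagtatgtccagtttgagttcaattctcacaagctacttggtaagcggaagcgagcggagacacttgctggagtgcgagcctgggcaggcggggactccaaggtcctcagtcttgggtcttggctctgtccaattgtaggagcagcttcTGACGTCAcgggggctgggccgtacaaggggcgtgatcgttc

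Cish held a pair of matches, at positions 1 and 12 counted from the first transcribed base as 1, Socs3 held its match at position -154, and Jak1 held its match at position -101. The Socs3 stretch lies inside the span of the annotated gene, and the Jak1 stretch lies before the gene. All entries of Socs3, Stat5a and Stat5b lie wholly inside the annotated spans of these genes. The bases just before those spans were thus not searched.

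The libraries held 2210 (WT+PBS), 2264 (WT+ISO), 2790 (β2AR-/-+PBS) and 2039 (β2AR-/-+ISO) cells, with totals of 19357824 to 29400468 unique molecular identifiers (UMIs, 1 per captured RNA molecule). The members had between 195 and 4130 UMIs in a library. The libraries shared 0 cell barcodes. Levels are sums over cells, expressed per 1000000 UMIs of the library (CPM). Below, β2AR-/- stands for the library labelled so. The median share of mitochondrial UMIs was 2.41 to 2.72%, and the share of each library's tag UMIs that came from its main multiplexing tag was 89.8 to 98.0%, lowest in β2AR-/-+ISO. Summed markers of other cell types moved between libraries. The 6 macrophage markers summed to 143 CPM in WT+PBS, 61.1 CPM in WT+ISO, 273 CPM in β2AR-/-+PBS and 210 CPM in β2AR-/-+ISO, with all 6 lower in WT+ISO than in WT+PBS. The 6 markers of migratory dendritic cells summed to 156, 62.4, 161 and 122 CPM in the same order, and all 6 were lower in WT+ISO than in WT+PBS. No marker of either list was at 0. Markers of MHC class II dendritic cells summed to 1016, 342, 1177 and 878 CPM and those of eosinophils to 59.8, 5.44, 81.4 and 8.27 CPM. Levels within clusters are set beside the library sums below.

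The kinase JAK2, which the GM-CSF receptor uses, is encoded by Jak2 (ENSMUSG00000024789, chr19:29251803-29313095). Its level was 132 CPM in WT+PBS, 76.0 CPM in WT+ISO, 145 CPM in β2AR-/-+PBS and 138 CPM in β2AR-/-+ISO. WT+ISO was the library apart from the other 3, whose levels lay close together, and its 95% Poisson interval, 72.8 to 79.2 CPM, did not overlap any of theirs. The log2 ratio of WT+ISO over WT+PBS was -0.79 (95% interval -0.87 to -0.72, exact conditional binomial), and that of β2AR-/-+ISO over β2AR-/-+PBS was -0.06 (-0.13 to 0.01). The ISO ratio of WT over that of β2AR-/- was -0.73 on the log2 scale (-0.84 to -0.63).

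JAK1, the kinase at the IL-6 receptor chain gp130, is encoded by Jak1 (ENSMUSG00000028530, chr4:101151974-101265282), whose span overlaps Raver2. Its level was 124 CPM in WT+PBS, 111 CPM in WT+ISO, 123 CPM in β2AR-/-+PBS and 118 CPM in β2AR-/-+ISO. The spread between the lowest and the highest library was small beside that of Jak2, and the log2 ratio with ISO was -0.16 (-0.23 to -0.09) in WT and -0.06 (-0.14 to 0.02) in β2AR-/-.

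**Figure D1:**
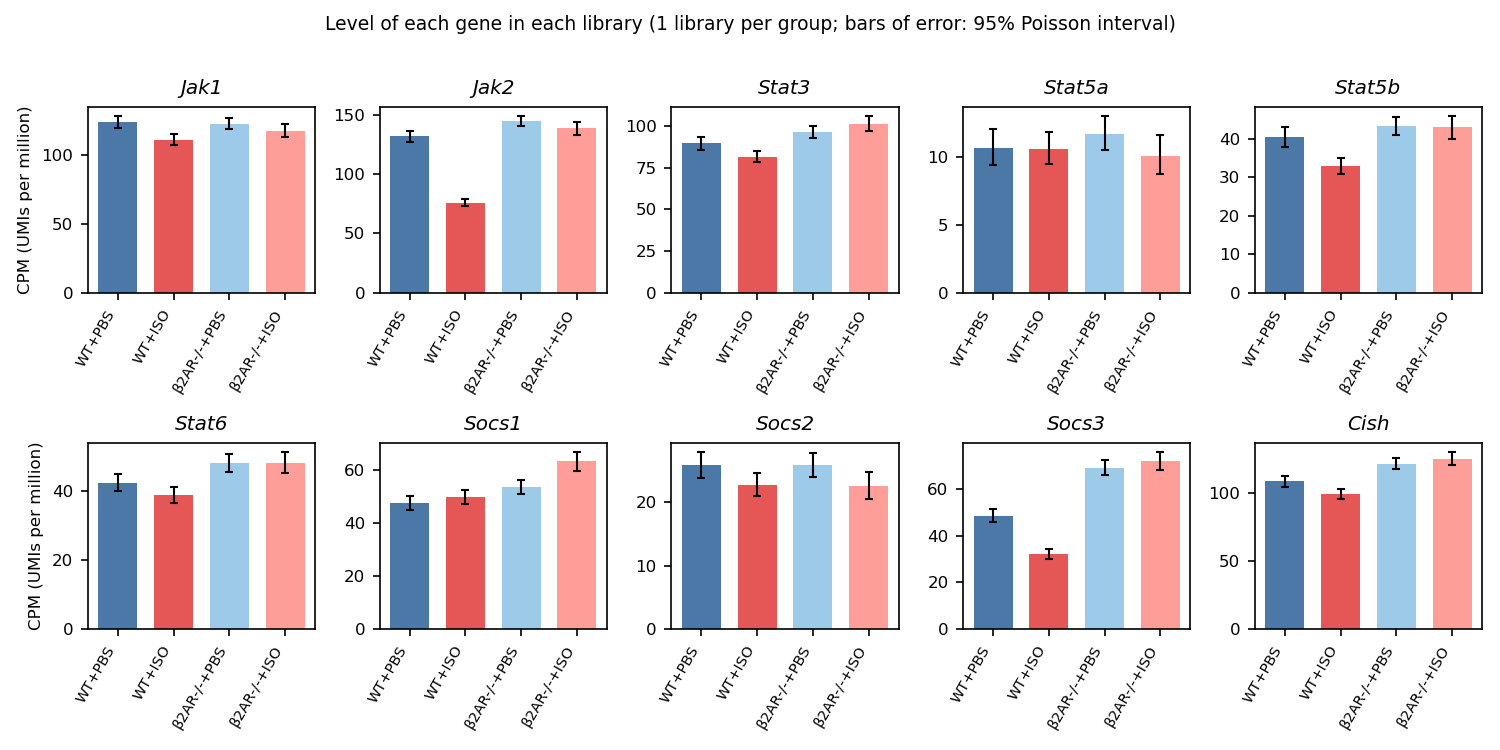
Level of each of the 10 genes in each library, in CPM (per 1000000 UMIs) on an axis from 0, with 1 bar per library and 95% Poisson intervals as error bars. WT+ISO stood lowest for Jak2 (76.0 CPM) and for Socs3 (32.1 CPM), while the bars of Jak1 and Stat5a differed little.

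Stat3, the transcription factor of IL-6 signaling (ENSMUSG00000004040, chr11:100886806-100939594), was at 89.4 CPM in WT+PBS, 81.3 CPM in WT+ISO, 96.1 CPM in β2AR-/-+PBS and 101 CPM in β2AR-/-+ISO. The lowest value was again that of WT+ISO, at a log2 ratio to WT+PBS of -0.14 (-0.22 to -0.05), and the ratio in β2AR-/- was 0.08 (-0.01 to 0.16). The paralogs Stat5a (ENSMUSG00000004043, chr11:100859351-100885169) and Stat5b (ENSMUSG00000020919, chr11:100780731-100859004) lie next to each other and are alike in sequence, and how reads that fit both were counted is not given in the sources used here, so their split is uncertain. Stat5a was at 10.7, 10.6, 11.7 and 10.1 CPM in WT+PBS, WT+ISO, β2AR-/-+PBS and β2AR-/-+ISO, and the intervals of the 4 libraries all overlapped. Stat5b was at 40.5, 33.0, 43.2 and 42.9 CPM in the same order, with WT+ISO below the other 3 and a log2 ratio with ISO of -0.30 (-0.43 to -0.17) in WT and -0.01 (-0.14 to 0.12) in β2AR-/-. Stat6, the factor of IL-4 and IL-13 (ENSMUSG00000002147, chr10:127642955-127660987, overlapping Nab2), was at 42.6, 38.9, 48.2 and 48.4 CPM, with log2 ratios of -0.13 (-0.25 to -0.01) and 0.00 (-0.12 to 0.12). 

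Socs3, the inhibitor that binds gp130 and the G-CSF receptor (ENSMUSG00000053113, chr11:117966079-117970336), was at 48.7 CPM in WT+PBS, 32.1 CPM in WT+ISO, 69.4 CPM in β2AR-/-+PBS and 72.3 CPM in β2AR-/-+ISO. The genotypes did not overlap for this gene, and within the wild type the level was lower with ISO. The log2 ratio with ISO was -0.60 (-0.72 to -0.47) in WT and 0.06 (-0.04 to 0.16) in β2AR-/-, and the first over the second was -0.66 (-0.81 to -0.50). Between genotypes the log2 ratio of β2AR-/- over WT was 0.51 (0.41 to 0.62) with PBS and 1.17 (1.05 to 1.29) with ISO, the latter a ratio of 2.25.

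Socs1, which blocks JAK kinases directly (ENSMUSG00000038037, chr16:10783808-10785536), had the only ISO ratio above 0 in WT among the 10 genes. It was at 47.5 CPM in WT+PBS, 49.8 CPM in WT+ISO, 53.6 CPM in β2AR-/-+PBS and 63.2 CPM in β2AR-/-+ISO. The highest library was β2AR-/-+ISO, and the log2 ratio with ISO was 0.07 (-0.05 to 0.18) in WT and 0.24 (0.13 to 0.35) in β2AR-/-. Socs2, best known for restraining growth hormone signaling (ENSMUSG00000020027, chr10:95383903-95417321), was at 25.9, 22.8, 25.9 and 22.6 CPM in WT+PBS, WT+ISO, β2AR-/-+PBS and β2AR-/-+ISO. In these sums both ISO libraries were lower than their PBS libraries by about the same amount, at log2 ratios of -0.19 (-0.34 to -0.03) and -0.20 (-0.37 to -0.02). With cell clusters held at fixed weights, as described below, the ratios were 0.11 in WT and -0.02 in β2AR-/-. Cish, a STAT5 target that competes for STAT5 docking (ENSMUSG00000032578, chr9:107296659-107302784), was at 108, 99.0, 121 and 125 CPM, with log2 ratios of -0.13 (-0.21 to -0.05) and 0.04 (-0.03 to 0.12). For 7 of the 10 genes, Jak2, Stat3, Stat5b, Stat6, Socs1, Socs3 and Cish, both β2AR-/- libraries were above both WT libraries, against 28.9% of 11853 genes. The counting intervals of the genotypes also did not overlap for 3 of them, Stat6, Socs3 and Cish, against 7.16% of all genes.

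A gene was counted as past 1.5-fold when its ratio reached 1.5 either way and it had at least 100 UMIs over both libraries, a limit that all 10 genes met in every comparison. With ISO in WT, 2 of the 10 genes, Jak2 and Socs3, were lower past 1.5-fold and 0 were higher, against 5.50% of 10771 genes lower and 1.00% higher (6.50% in either direction). The ratio was below 0 for 9 of the 10 genes, among which Stat5a was at -0.01 and turned to 0.02 with median-of-ratios size factors, and the members had a median log2 ratio of -0.15 beside -0.02 over all genes tested. Of all genes tested, 51.8% lay below the ratio of Stat5a, so a ratio below 0 was common. With ISO in β2AR-/-, 0 of the 10 genes were past 1.5-fold, against 1.58% of all genes, and the median was -0.003 beside -0.04. Between the PBS libraries 0 of the 10 were past 1.5-fold, against 4.40% of all genes, with a median log2 ratio of 0.13 beside -0.01. At 1.2-fold 1 of the 10, Socs3, was past the limit there, against 25.4% of all genes. Between the ISO libraries Socs3 and Jak2 were higher in β2AR-/- past 1.5-fold, against 9.08% of all genes higher (15.9% in either direction), and the median log2 ratio was 0.33 beside -0.02. At 1.2-fold 7 of the 10 were past the limit, against 49.1% of all genes. The ISO ratio was lower in WT than in β2AR-/- past 1.5-fold for Jak2 and Socs3, against 5.42% of all genes lower and 7.30% in either direction. These comparisons share libraries, so WT+ISO enters 3 of them. The count of 2 in WT rests in part on Socs3, which lies just past the limit and fell inside it when libraries were scaled by median-of-ratios size factors (-0.57) or with equal weight per cell (-0.46).

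The cells were sorted into 7 clusters without use of the members or of the pathway genes below. By marker genes, clusters were called mature neutrophil-like (cluster 0, with Retnlg and Mmp9 among its leading genes), specific-granule neutrophil-like (cluster 1 with Ltf, cluster 3 with Camp and Fcnb), macrophage-like (cluster 2, with Mrc1 and C1qb), azurophil-granule neutrophil progenitor-like (cluster 5, with Mpo and Elane) and migratory dendritic cell-like (cluster 6, with Ccr7, Fscn1 and Ccl22). Cluster 4, with Kcnq5 and Matn2, met no naming rule. Cluster 2 had 3 of 6 macrophage markers in at least 10% of its cells, and also 5 of 6 monocyte markers and 5 of 7 MHC class II dendritic cell markers. The mean log2 ratios of these lists there were 3.75, 1.57 and 1.25. Cluster 6 was present in all 4 libraries with 37, 15, 34 and 15 cells. At resolution 0.6 a cluster led by Gpnmb and Atp6v0d2 met no naming rule and stood apart from a mature neutrophil-like cluster led by Retnlg and Mmp9. At resolution 1.0 a macrophage-like cluster of 1025 cells led by C1qb stood apart from an unnamed cluster of 844 cells. The latter had F13a1, a monocyte marker used here, among its leading genes. In what follows, mature neutrophil-like cells are those of cluster 0 and macrophage-like cells are all those of cluster 2. How the members differ between such finer clusters was not examined.

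All 10 genes differed past 2-fold between their highest and lowest cluster, as did 86.9% of the 11853 genes tested, so such a range is the rule here. In cluster 6, 5 of the 10 genes had their highest level, Jak2, Stat3, Stat5a, Stat5b and Socs2 (28.3% of all genes tested did). The first place of Stat5b was not distinct. Against all other cells, Jak1, Stat6 and Socs3 were lower in cluster 6, at log2 ratios of -0.23, -0.13 and -0.08, and the other members were higher. Socs2 was at 306 CPM in cluster 6 and between 12.5 and 28.2 CPM in the other 6 clusters, a log2 ratio of cluster 6 over all other cells of 3.90, higher than that of 98.7% of the genes tested. Jak2 was at 900 CPM in cluster 6, followed by 200 CPM in the macrophage-like cluster, 148 CPM in mature neutrophil-like cells and 25.8 CPM in azurophil-granule progenitor-like cells, where it was lowest. For Jak2 no neighbours in this order had overlapping counting intervals. Stat5a was at 67.4 CPM in cluster 6, 13.8-fold its lowest level of 4.87 CPM in cluster 1, and Stat3 was at 282 CPM in cluster 6 and at 45.2 to 110 CPM elsewhere. Cluster 6 made up 1.09% of cells but held 10.1% of the Jak2 UMIs, 17.1% of the Socs2 UMIs and 8.45% of the Stat5a UMIs.

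The Jak2 and Socs2 levels in cluster 6 did not come from a few cells. A Jak2 UMI was found in 101 of its 101 cells (median 12352 UMIs per cell) and in 43.0% of the 484 cells of cluster 5, whose median was higher at 23868.5 UMIs. After thinning each cell to 2000 UMIs, which left out 1 and 5 shallower cells, the shares were 75.3% in cluster 6 and 4.96% in cluster 5. The macrophage-like cluster, with a median of 14477 UMIs, lay between them for Jak2, at 78.4% of cells and 29.2% after thinning. For Socs2 the share was 82.2% in cluster 6 and 29.8% in cluster 5, and 44.4% and 2.94% after thinning. A Stat5a UMI was found in 47.5% of the cells of cluster 6. No cell type that should lack these genes was defined, so the share that free RNA gives was not measured.

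**Figure D2:**
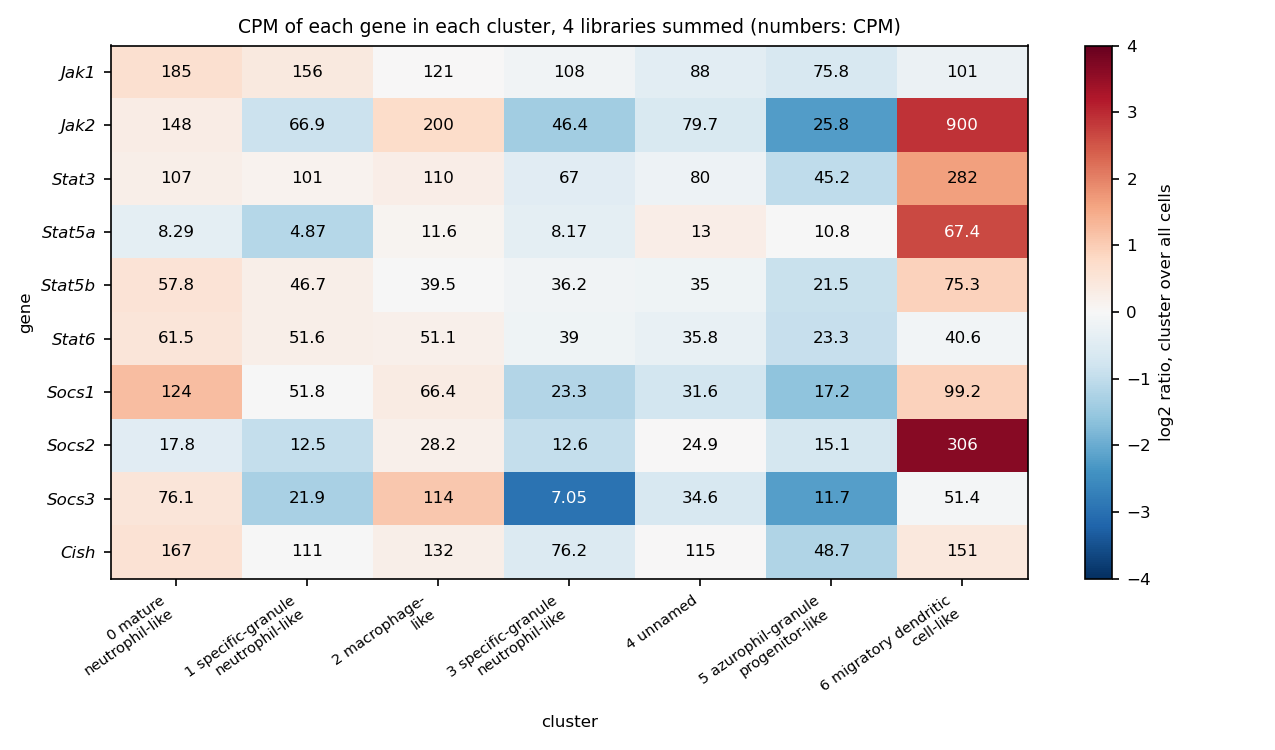
Level of each gene (rows) in each of the 7 clusters (columns), with the 4 libraries summed. Numbers are CPM, and color is the log2 ratio of the cluster over all cells. Jak2 (900 CPM), Socs2 (306 CPM), Stat3 (282 CPM) and Stat5a (67.4 CPM) peak in cluster 6, while Socs3 runs from 7.05 CPM in cluster 3 to 114 CPM in cluster 2.

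The other members followed a different order. Socs3 was highest in the macrophage-like cluster at 114 CPM and next in mature neutrophil-like cells at 76.1 CPM, and fell to 21.9 CPM and 7.05 CPM in the specific-granule clusters 1 and 3, a range of 16.2-fold. The macrophage-like cluster, 21.0% of cells, held 60.3% of the Socs3 UMIs. Socs1 was highest in mature neutrophil-like cells at 124 CPM and lowest in azurophil-granule progenitor-like cells at 17.2 CPM, a range of 7.21-fold. Jak1, Stat6 and Cish were also highest in mature neutrophil-like cells, at 185, 61.5 and 167 CPM, and lowest in azurophil-granule progenitor-like cells, at 75.8, 23.3 and 48.7 CPM. For Cish the first place was not distinct, since its interval overlapped that of cluster 6 at 151 CPM. The same held for Stat5b, at 75.3 CPM in cluster 6 and 57.8 CPM in cluster 0. Across the neutrophil-like clusters, ordered from azurophil-granule progenitors (5) over clusters 3 and 1 to mature cells (0), the levels of Jak1, Jak2, Stat3, Stat5b, Stat6, Socs1 and Cish stood in that order from low to high (7 of 10, against 17.7% of 11853 genes), although for Stat3 the intervals of clusters 1 and 0 overlapped. The median depth of these clusters ran the other way, at 23868.5, 13322, 6062 and 3673.5 UMIs per cell, and its part in the order was not tested. In all, 22 of the 60 neighbouring pairs in the members' cluster orders had overlapping intervals. CPM is a share of the RNA captured and not an amount per cell.

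A lower CPM of a library can come from fewer cells of a type or from a smaller share of the gene in their RNA. The library values alone cannot tell these apart, and a smaller share need not mean less RNA of the gene per cell. The median was 8088.5 UMIs per cell in WT+PBS, 10252 in WT+ISO, 8129 in β2AR-/-+PBS and 7484 in β2AR-/-+ISO. The part of this depth in the ratios with ISO was not tested. The share of macrophage-like cells was 18.7% in WT+PBS, 11.9% in WT+ISO, 27.8% in β2AR-/-+PBS and 24.1% in β2AR-/-+ISO, and that of mature neutrophil-like cells was 34.7, 25.0, 28.3 and 30.5%. Jak2 and Socs3 were lowest in clusters 3 and 5, which were larger in WT+ISO. In the same order cluster 3 held 10.6, 16.1, 7.92 and 9.42% of cells and cluster 5 held 5.57, 8.52, 3.98 and 2.80%. Clusters 1 and 4 were also larger with ISO in WT, from 19.0 to 25.2% and from 9.77 to 12.5%. The library sums weight clusters by UMIs. By that share, in WT, cluster 3 went from 14.4 to 19.0%, cluster 5 from 12.3 to 17.1% and cluster 2 from 27.3 to 16.5%. Levels within clusters were therefore set beside the library sums. Each library was also computed with each cluster at a fixed weight, its mean share of cells over the 4 libraries. Cluster 0 then weighed 29.6% and cluster 5 weighed 5.22%. These weights count cells, so they replace the weighting by UMIs as well as holding the mix of clusters.

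Within clusters, Jak2 was lower with ISO in WT cells, with an interval below 0 in 4 of the 7. In macrophage-like cells it was at 208 CPM in WT+PBS, 138 CPM in WT+ISO, 217 CPM in β2AR-/-+PBS and 209 CPM in β2AR-/-+ISO, and in mature neutrophil-like cells at 163, 109, 169 and 147 CPM. WT+ISO was lowest in both clusters and its intervals overlapped no other library's. The log2 ratio in WT was -0.59 (-0.72 to -0.46) in macrophage-like cells and -0.58 (-0.79 to -0.38) in mature neutrophil-like cells. The other such clusters were 4 (-0.27) and 5 (-0.51). In cluster 5 Jak2 was at 33.7 CPM in WT+PBS, 23.7 CPM in WT+ISO, 21.4 CPM in β2AR-/-+PBS and 24.3 CPM in β2AR-/-+ISO. There WT+PBS was highest, and WT+ISO lay between the β2AR-/- libraries. The log2 ratio in WT was 0.02 (-0.23 to 0.27) in cluster 6 and -0.03 (-0.31 to 0.26) in the specific-granule cluster 3. In β2AR-/- the ratio in macrophage-like cells was -0.05 (-0.15 to 0.04). In mature neutrophil-like cells it was -0.19, with an interval (-0.39 to -0.0006) just below 0. Cluster 4 was higher with ISO at 0.21 (0.01 to 0.42), as was cluster 6 at 0.51 (0.26 to 0.76), the latter in 15 against 34 cells. At fixed weights the log2 ratio in WT was -0.44, beside -0.79 in the sums, and that of the ISO ratio in WT over β2AR-/- was -0.41. Cluster 6 alone, 1.67% of WT+PBS cells and 0.663% of WT+ISO cells, held 15.1% and 8.20% of the Jak2 UMIs of these libraries, and without it the ratio was -0.71. Without clusters 2 and 6 the ratio was -0.47 (-0.58 to -0.36), inside 1.5-fold.

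Socs3 behaved otherwise. In macrophage-like cells it was at 93.0 CPM in WT+PBS, 88.9 CPM in WT+ISO, 127 CPM in β2AR-/-+PBS and 132 CPM in β2AR-/-+ISO, and in mature neutrophil-like cells at 67.1, 59.7, 83.7 and 96.3 CPM. The ISO ratio in WT was -0.06 (-0.25 to 0.11) in the first and -0.17 (-0.47 to 0.13) in the second, both intervals holding 0. Cluster 4 was the exception, at 40.9, 23.5, 39.3 and 40.7 CPM and a log2 ratio in WT of -0.80 (-1.11 to -0.49). At fixed weights the ratio in WT was -0.17, so Socs3 was then inside 1.5-fold, while β2AR-/-+ISO over WT+ISO was at 0.61. In sums without clusters 2 and 6, Socs3 was at -0.61 (-0.79 to -0.43) with ISO in WT, past 1.5-fold. Such sums do not hold the mix of the remaining clusters, of which cluster 4 alone had an interval below 0. Between the PBS libraries it was at 0.27 at fixed weights and within clusters at 0.45 (0.31 to 0.59) in macrophage-like cells, 0.32 (0.06 to 0.58) in mature neutrophil-like cells, -0.06 (-0.35 to 0.23) in cluster 4 and -0.54 (-1.10 to 0.01) in cluster 1. With ISO in β2AR-/-, Socs3 was at 0.05 in macrophage-like cells, 0.20 in mature neutrophil-like cells and 0.05 in cluster 4, all with intervals that held 0, and in cluster 1 it was higher, at 0.85 (0.34 to 1.37). The difference between genotypes with ISO was present in each of the 4 clusters with at least 100 UMIs, at log2 ratios of 0.48 to 0.79.

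**Figure D3:**
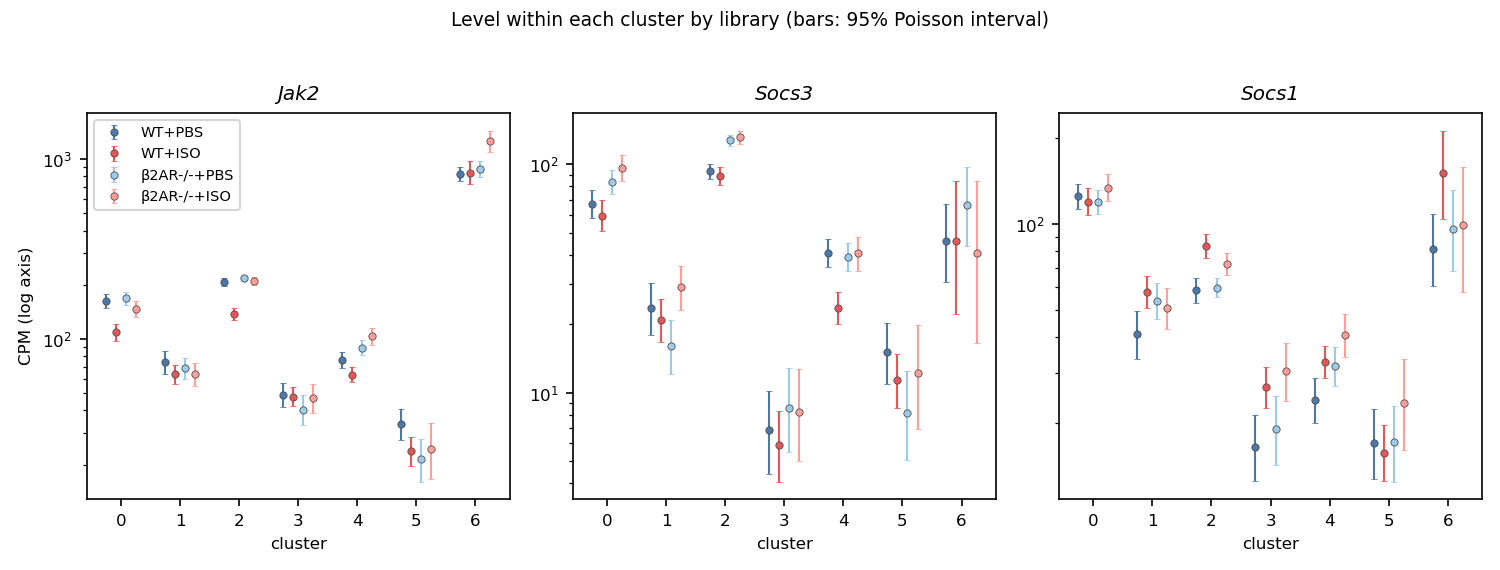
CPM of Jak2, Socs3 and Socs1 (log axis) within clusters 0 to 6 for each library, with 95% Poisson intervals as bars. Jak2 in WT+ISO lies below the other libraries in clusters 0 and 2. The Socs3 points of the genotypes lie apart in clusters 0 and 2, though in cluster 0 the intervals of the PBS libraries overlap. In clusters 1 to 4 Socs1 of WT+ISO lies above that of WT+PBS.

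Socs1 was higher with ISO in 4 of the 6 clusters with at least 100 UMIs in WT, with intervals above 0. In macrophage-like cells it was at 58.5 CPM in WT+PBS, 83.8 CPM in WT+ISO, 59.7 CPM in β2AR-/-+PBS and 72.2 CPM in β2AR-/-+ISO. Both ISO libraries were above both PBS libraries there, at log2 ratios of 0.52 (0.31 to 0.72) in WT and 0.28 (0.10 to 0.45) in β2AR-/-. In WT the ratio was also above 0 in cluster 1 at 0.50 (0.16 to 0.84), in cluster 3 at 0.70 (0.25 to 1.16) and in cluster 4 at 0.45 (0.12 to 0.78). In cluster 1 Socs1 was at 40.9 CPM in WT+PBS, 57.8 CPM in WT+ISO, 53.7 CPM in β2AR-/-+PBS and 50.6 CPM in β2AR-/-+ISO, so WT+PBS was lowest there. The ratio in WT was -0.06 (-0.28 to 0.15) in cluster 0, where Socs1 was highest and whose share was lower in WT+ISO. In cluster 5 it was -0.11 (-0.64 to 0.42). At fixed weights the ratio in WT was 0.21, beside 0.07 in the sums, and with equal weight per cell it was -0.14, so its direction over a whole library depends on how cells are weighted. In β2AR-/- the ratio was above 0 in 4 of 5 clusters, with cluster 1 at -0.08, and 0.18 at fixed weights, and the ISO ratio of WT over that of β2AR-/- was then 0.03.

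Of the other members, 1 pair of gene and cluster was past 1.5-fold in WT, Socs2 in cluster 6. Stat5b was lower with ISO in each of 6 clusters (-0.38 to -0.16), with an interval below 0 in 1 of them, and was at -0.23 at fixed weights. Jak1 was lower in each of 6 clusters (-0.24 to -0.02) with an interval below 0 in mature neutrophil-like cells alone. Stat3 was at 0.01 at fixed weights, with ratios of -0.17 (-0.34 to -0.002) in macrophage-like cells and 0.30 (0.05 to 0.55) in cluster 3. Stat5a had at least 100 UMIs in 2 clusters, where it was at 0.24 (-0.27 to 0.75) in cluster 2 and 0.48 (-0.01 to 0.99) in cluster 4, and it was at -0.04 at fixed weights. Stat6 was at -0.03 and Cish at -0.02 at fixed weights, with no interval clear of 0 in any cluster tested. Socs2 was above 0 in 5 of 6 clusters, and in cluster 6, where it peaked, it was at 249 CPM in WT+PBS and 381 CPM in WT+ISO (log2 ratio 0.61, 0.21 to 1.01, in 37 and 15 cells). Cluster 6 held 23.1% of the Socs2 UMIs of WT+PBS and 12.4% of those of WT+ISO. Without cluster 6 the Socs2 ratio in WT was -0.02 (-0.20 to 0.16), and at fixed weights it was 0.11. In β2AR-/- cluster 6 stood at 289 CPM of Stat3 with PBS and 513 CPM with ISO (log2 ratio 0.83, 0.41 to 1.24). These levels rest on 117 UMIs in 34 cells and 88 UMIs in 15 cells. Of the 58 gene and cluster pairs with at least 100 UMIs in WT, 2 were higher and 2 lower past 1.5-fold, against 1.87% and 2.44% of all such pairs. In β2AR-/- 4 of 50 pairs were past 1.5-fold (Socs3 in cluster 1, Socs1 in cluster 3 and Stat3 in cluster 6 higher, Stat5a in cluster 4 lower at -0.63), against 1.16% of all pairs higher and 1.23% lower. Between the ISO libraries 6 of 54 pairs were higher in β2AR-/- and 1 was lower, against 3.90% and 5.13%, with Socs3 and Jak2 giving 4 of the 6. Between the PBS libraries 1 of 55 pairs, Jak2 in cluster 5, was lower in β2AR-/-, against 2.43%. At fixed weights 0 of the 10 genes were past 1.5-fold in WT, against 4.23% of all genes, and the count between the ISO libraries was 1 (Socs3), against 7.36%. The members' median log2 ratio with ISO in WT was then -0.04, beside -0.01 over all genes. Between the ISO libraries it was 0.14, beside -0.04.

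**Figure D4:**
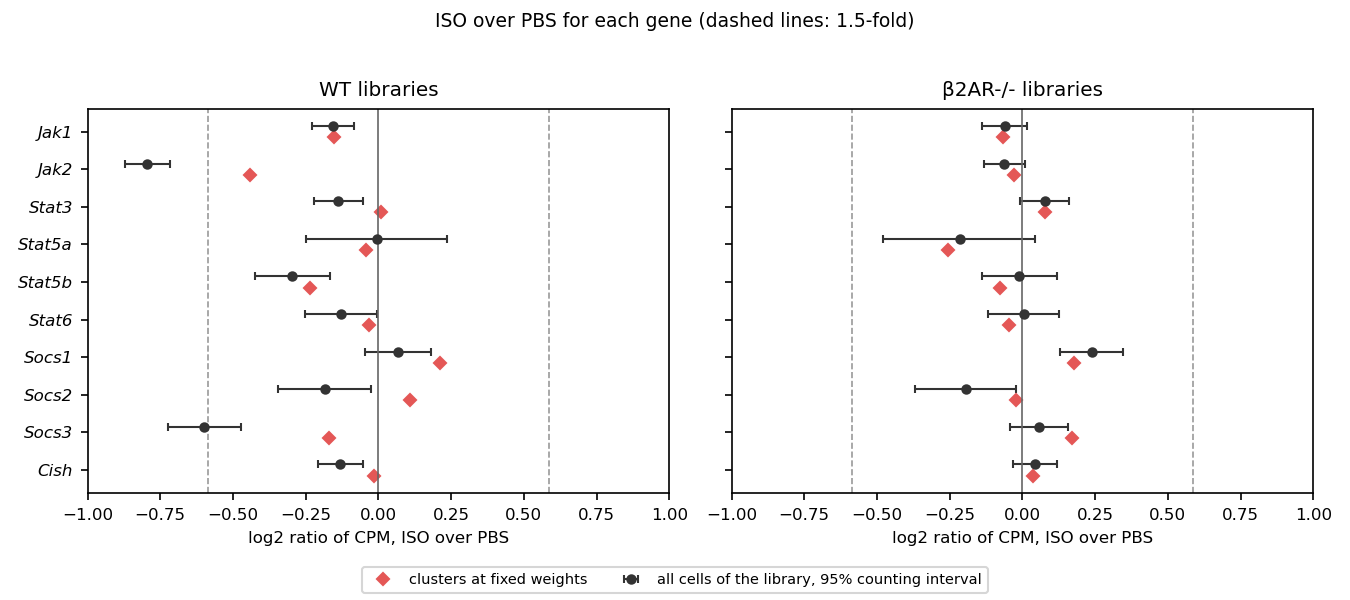
Log2 ratio of CPM, ISO over PBS, of each gene in the WT (left) and β2AR-/- (right) libraries. Black points sum all cells, with 95% counting intervals, red diamonds hold clusters at fixed weights, and dashed lines mark 1.5-fold. In WT, Jak2 lies at -0.79 and Socs3 at -0.60 in the sums and at -0.44 and -0.17 at fixed weights.

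The rest of the pathway was described through 7 lists of genes. Among the receptors, 1 of 13 was past 1.5-fold with ISO in WT, against 6.50% of all genes. This was Il6st, which encodes gp130, the shared signaling chain of IL-6 receptors, at 16.6 CPM in WT+PBS and 10.3 CPM in WT+ISO (log2 ratio -0.70) and at 23.9 and 22.9 CPM in β2AR-/-. The median of the list was -0.21 in WT and 0.01 in β2AR-/-. Csf3r, the G-CSF receptor and also a marker of mature neutrophils, was next at -0.53. At fixed weights Il6st was at -0.10, Csf3r at -0.46 and the median of the list at -0.07, and Csf2rb and Csf2rb2, the shared chain of the GM-CSF receptor and its close paralog, were above 0 at 0.17 and 0.22. Of the other JAK and STAT genes 0 of 5 were past 1.5-fold in either genotype, with Tyk2 (-0.28) and Stat4 (-0.17) the furthest from 0 in WT. Likewise 0 of 4 other SOCS genes and 0 of 10 other negative regulators passed, with Socs6 at -0.27 and Socs7 at -0.26, and with Pias3 at -0.49 and Pias2 at -0.17.

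Among the target genes, the STAT6 list stood apart, though its genes are also genes of cell types. In WT 4 of its 6 genes with at least 100 UMIs were lower with ISO past 1.5-fold and 0 were higher, against 5.50% and 1.00% of all genes. In β2AR-/- 2 of 6 were lower, against 0.997% of all genes, Ccl22 at -0.77 and Arg1 at -0.59. Ccl17, a chemokine of dendritic cells and one of the migratory markers used here, was at 63.5 CPM in WT+PBS and 8.37 CPM in WT+ISO (log2 ratio -2.92), and at 65.9 and 45.2 CPM in β2AR-/-. Mrc1, the mannose receptor and a macrophage marker used here, was at 51.5 and 10.5 CPM in WT (-2.29) and at 121 and 81.5 CPM in β2AR-/-. Arg1, the arginase of suppressive myeloid cells, was at 7.30 and 2.18 CPM in WT and at 22.3 and 14.8 CPM in β2AR-/-. Ccl22, another migratory dendritic cell marker used here, was the fourth, at -1.28 in WT, and turned to 0.29 at fixed weights. At fixed weights Ccl17 was at -1.97, Mrc1 at -1.62 and Arg1 at -1.14 in WT. Chil3 and Pparg, of the same list, were at 0.04 and 0.14 in WT.

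Of the STAT3 targets, 2 of 12 were lower past 1.5-fold with ISO in WT and 0 higher, against 5.50% and 1.00% of all genes. These were Saa3, an acute-phase protein, at -0.79, and the immediate early gene Fos, at -0.63. Lcn2, which encodes a granule protein and is a neutrophil marker used here, was at 0.54. Of the STAT5 targets, 2 of 10 were lower, against the same 5.50%, Ccnd1 (cyclin D1) at -0.88 and Id2, a regulator of dendritic cell development, at -0.76. With lists of this size, a count of 1 or 2 genes says little beside that share. At fixed weights Ccnd1 was at 0.00, Id2 at -0.42, Saa3 at -0.29 and Fos at -0.60. In β2AR-/- 0 genes of these lists were past 1.5-fold. The medians in WT were -0.11 for STAT3 targets, -0.17 for STAT5 targets and -1.51 for STAT6 targets, beside -0.02 over all genes. In β2AR-/- they were 0.05, 0.05 and -0.56, beside -0.04 over all genes. At fixed weights they were 0.05, -0.03 and -0.58 in WT, and the STAT6 median in β2AR-/- was -0.31. The part of the macrophage and dendritic cell markers in these list values was not tested beyond the fixed weights.

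**Figure D5:**
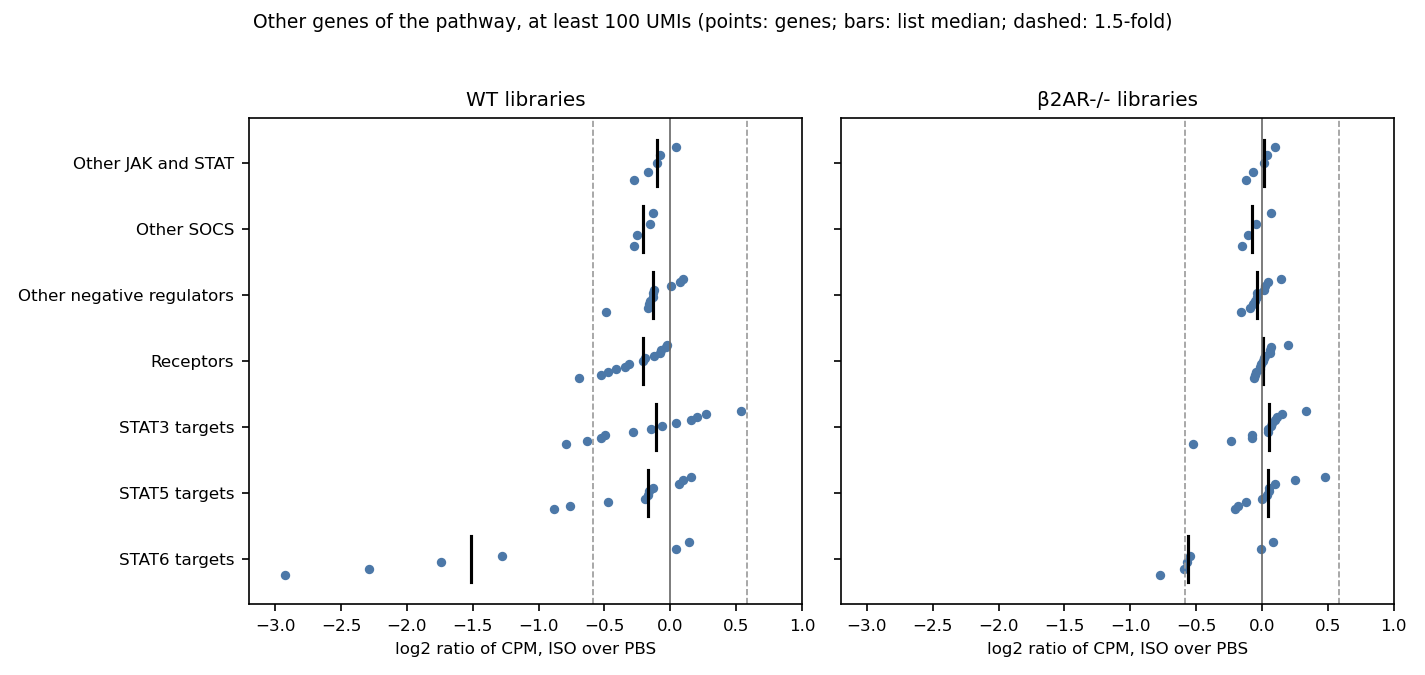
Log2 ratio of CPM, ISO over PBS, for the genes of 7 lists with at least 100 UMIs, in WT (left) and β2AR-/- (right). Points are genes, black bars list medians and dashed lines 1.5-fold. The STAT6 targets lie furthest to the left in WT (median -1.51).

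Patterns across clusters and libraries were compared over 26 profiles, 1 for each cluster and library with at least 20 cells, among 9238 genes. The profiles share cells of the same libraries and differ in depth, so the Pearson correlations are given as a description. Cluster 6 entered only through its PBS libraries (37 and 34 cells), since each ISO library had 15 cells of it. Stat5a was there at 58.0 CPM in WT+PBS and 74.0 CPM in β2AR-/-+PBS, and Socs2 at 249 and 326 CPM, far above the other clusters. How far these profiles carry the correlations was not tested. The genes most like Jak2 were Bmp2k (r = 0.99), Trip12 and Dip2b (0.98 each). The nearest to Socs2 were Cblb (0.98), Ikzf4 (0.97) and Dexi (0.97), to Socs3 Galnt6 (0.97), Mcub (0.97) and Ahnak (0.97), and to Cish Il10ra (0.97) and Nfil3 (0.97). Among the members themselves the closest pairs were Stat5a with Socs2 (0.96), Jak2 with Stat3 (0.94) and Socs1 with Cish (0.89), and the least alike was Jak1 with Stat5a (-0.29).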

How the data were processed

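Unnormalized UMI counts were deposited by the authors for the barcodes taken as cells, with 1 library per group. The submitters' processing notes name Cell Ranger 6.0.0, Seurat and mm10, and the matrix headers name Cell Ranger 7.0.0, so the version is uncertain. The treatment of introns, of strand and of reads that fit several genes is not given in the sources used here. Groups followed the sample titles and the paper. The labels' treatment field gives isoproterenol for all 4 samples.

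A minimum of 200 detected genes and a limit of 10% on mitochondrial UMIs left 9303 of 9525 cells, and 12 multiplexing tags were left out. Clusters came from scanpy 1.11.5 and leidenalg 0.10.2 (1978 variable genes, 30 principal components, 15 neighbours, resolution 0.4), with names from fixed marker lists (needing 3 markers in 10% of cells, a mean log2 ratio of 1 or more and a marker among the 10 leading genes). Scrublet called 17 cells (0.183%), under its expected 6%, and doublets were kept. CPM intervals are exact Poisson, ratio intervals exact conditional binomial, shares exact Clopper-Pearson, all 95%. No test across groups was possible. The ratio code was tested on simulated data. All members were described. In each pathway list the 2 furthest from 0 among genes with at least 100 UMIs were named, and Arg1, Ccl22, Chil3, Pparg, Lcn2, Csf2rb and Csf2rb2 were named after their values were seen. Likeness used log2(CPM + 10) of genes with at least 500 UMIs. A check of the genotype labels, 1 pathway list and 1 like gene are not reported here. The members and lists were chosen with earlier results of these data known. The alternatives tried were other scalings, filters, cell weights, clusterings and fold limits.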

Additional observations from a re-analysis of the deposited data

How the results depend on the processing

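The depth of a library limits the members little, but 1 library per group leaves all variation between cultures unmeasured, and clusters 5 and 6 are small. Of 82 counts recomputed, 65 stayed within 1.5 times the reported count, and of 550 single ratios of members 467 moved by less than their counting interval. No ratio past 1.5-fold changed sign. The count of members past 1.5-fold with ISO in WT, 2 as reported, was 1 with median-of-ratios size factors, with totals without the 20 most abundant genes, with equal weight per cell and without clusters 2 and 6, and 0 with clusters at fixed weights at either resolution. Without clusters 2 and 6 it was Socs3 that stayed past the limit (-0.61), while Jak2 fell inside it (-0.47). The mix of the remaining clusters was not held there, and at fixed weights Socs3 was at -0.17 and Jak2 at -0.44. Between the ISO libraries the count of 2 was 1 at fixed weights and without clusters 2 and 6, 0 at fixed weights with resolution 1.0, and 7 at a limit of 1.2-fold. There too, without clusters 2 and 6, Socs3 stayed past 1.5-fold (0.93) and Jak2 did not (0.55). Between the PBS libraries the count of 0 was 1 at 1.2-fold. The count of 2 for the difference of ISO ratios was 1 with equal weight per cell and 0 at fixed weights at either resolution. Within clusters the 4 pairs in WT became 9 at resolution 1.0 and 2 with all variable genes kept, and the 4 pairs in β2AR-/- became 1 at resolution 0.6. The pairs tested change with the clustering, and the share over all genes was not computed for these settings. These recounts are therefore not read as more or fewer changes. Leaving out clusters and resolution 1.0 at fixed weights were chosen after seeing the data. Leaving out a replicate was not possible with 1 library per group. No paired analysis was possible because no result comes from a test and a group is a single library.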
